A study of Mus musculus with 156 samples.

Results

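RNA of the mouse striatum was measured on whole-genome bead arrays 1, 2, 4 and 8 h after a single intraperitoneal injection of buspirone at 10 mg/kg, and each time was set against saline-injected mice of the same time. The comparison was made by arrays, taking the 12 that the labels give as buspirone, replicates 1 to 3 of each time, and the 12 saline arrays numbered 4 to 6, among 48 arrays on 8 chips and 108 arrays of the rest of the series. All 45279 probes without a missing value were tested. The series followed antidepressants, anxiolytics and antipsychotics over the same 4 times to describe the dynamics of their transcriptional response. All mice were C57BL/6J animals that the labels give as 6 to 10 weeks old. The buspirone and saline arrays shared these chips with 12 arrays of hydroxyzine at 10 mg/kg and 12 of diazepam at 5 mg/kg, and each array held RNA pooled from 2 mice. These 16 groups of 3 arrays gave the estimate of the spread. Saline mice were injected as a control of each time, and no uninjected mice lay on these chips. The tissue called striatum here held the nucleus accumbens and the rostral caudate putamen, and it was homogenized. Fewer cells of a type and less RNA per cell therefore cannot be told apart.

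Buspirone is an anxiolytic that acts as a partial agonist at the serotonin 5-HT1A receptor and also binds dopamine D2-like receptors. The 5-HT1A receptor couples to inhibitory G proteins. On serotonin neurons of the raphe it acts as an autoreceptor, and elsewhere it lies on target neurons. The striatum consists mostly of medium spiny neurons, GABAergic projection neurons that carry D1 or D2 dopamine receptors. In such neurons synaptic input, cAMP and ERK signalling switch on immediate early genes, among them the Fos, Egr and Homer1a transcripts, within minutes to an hour without new protein synthesis. A second set of genes, such as Sgk1, Fkbp5, Tsc22d3 and Klf9, is switched on by the glucocorticoid receptor when corticosterone is high, in neurons and in glia. Buspirone is known to raise circulating corticosterone in rodents.

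The tissue carried the markers of striatum. Among 17 medium spiny neuron genes, Ppp1r1b, which encodes DARPP-32, had a mean log2 signal of 15.34 over the 48 arrays of these chips, Rgs9 one of 14.96 and Drd1 one of 12.58. The summed signal of the 17 genes was 17.64 to 17.94 on the log2 scale over the buspirone arrays and 17.56 to 17.91 over the saline arrays. No gene of the list passed a test of buspirone against saline. Array medians ran from 6.93 to 8.63 on the log2 scale before normalization. The dimmest chip had a median of 6.97 against 7.25 for the next, and it held 1 buspirone array (4 h replicate 2) and 2 saline arrays (1 h replicate 4 and 4 h replicate 6). Arrays of one chip deviated together from their group means (mean correlation 0.24, against -0.03 for arrays of different chips), and the chip was entered as a block in the model. Buspirone and saline arrays of a time shared a chip in 2 pairs per time, 8 in all, and these pairs are given below as a measure that needs no block. The paired arrays also entered the fit, so for a called probe the pairs are no independent evidence.

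Few probes changed. Most of those described next were higher after buspirone, while the differences of both globin probes, Hba-a1 and Hbb-bs, lay below 0 at 1 h and above 0 at 4 h. With a false discovery rate of 5%, 8 probes passed over the 4 times together (0.0177% of the probes tested), and 8 passed when the difference was averaged over the times (0.0177%). These made 12 probes in all: Egr2, Cdkn1a, a probe that the study names Homer1, Fosb, Hba-a1, Synm, Hbb-bs, Sgk1, Egr4, Txnip, Inhba and Egr3. Of the 12, 6 encode or are named for genes switched on by neuronal activity, and Cdkn1a and Sgk1 are glucocorticoid targets. At single times 2 probes passed at 1 h (0.00442%), 7 at 2 h (0.0155%), and 0 at 4 h and 0 at 8 h by the same limma test. At an unadjusted p under 0.05 the 4 h comparison held 1312 higher (2.9%) and 1284 lower probes (2.84%) and the 8 h comparison 1058 (2.34%) and 973 (2.15%). All 3 buspirone arrays lay above all 3 saline arrays for 6.28% of probes at 1 h, 4.32% at 2 h, 3.92% at 4 h and 5.05% at 8 h, and below them for 7.41% at 1 h, so that a lack of overlap at 1 time is common by itself. The counts rest on the model of the chip. Without the chip as a block 2 probes passed over the 4 times, Egr2 and Cdkn1a, and 1 passed in the average. Without the dimmest chip, an alternative chosen after seeing the data, 7 passed over the 4 times and 2 in the average.

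**Figure D1:**
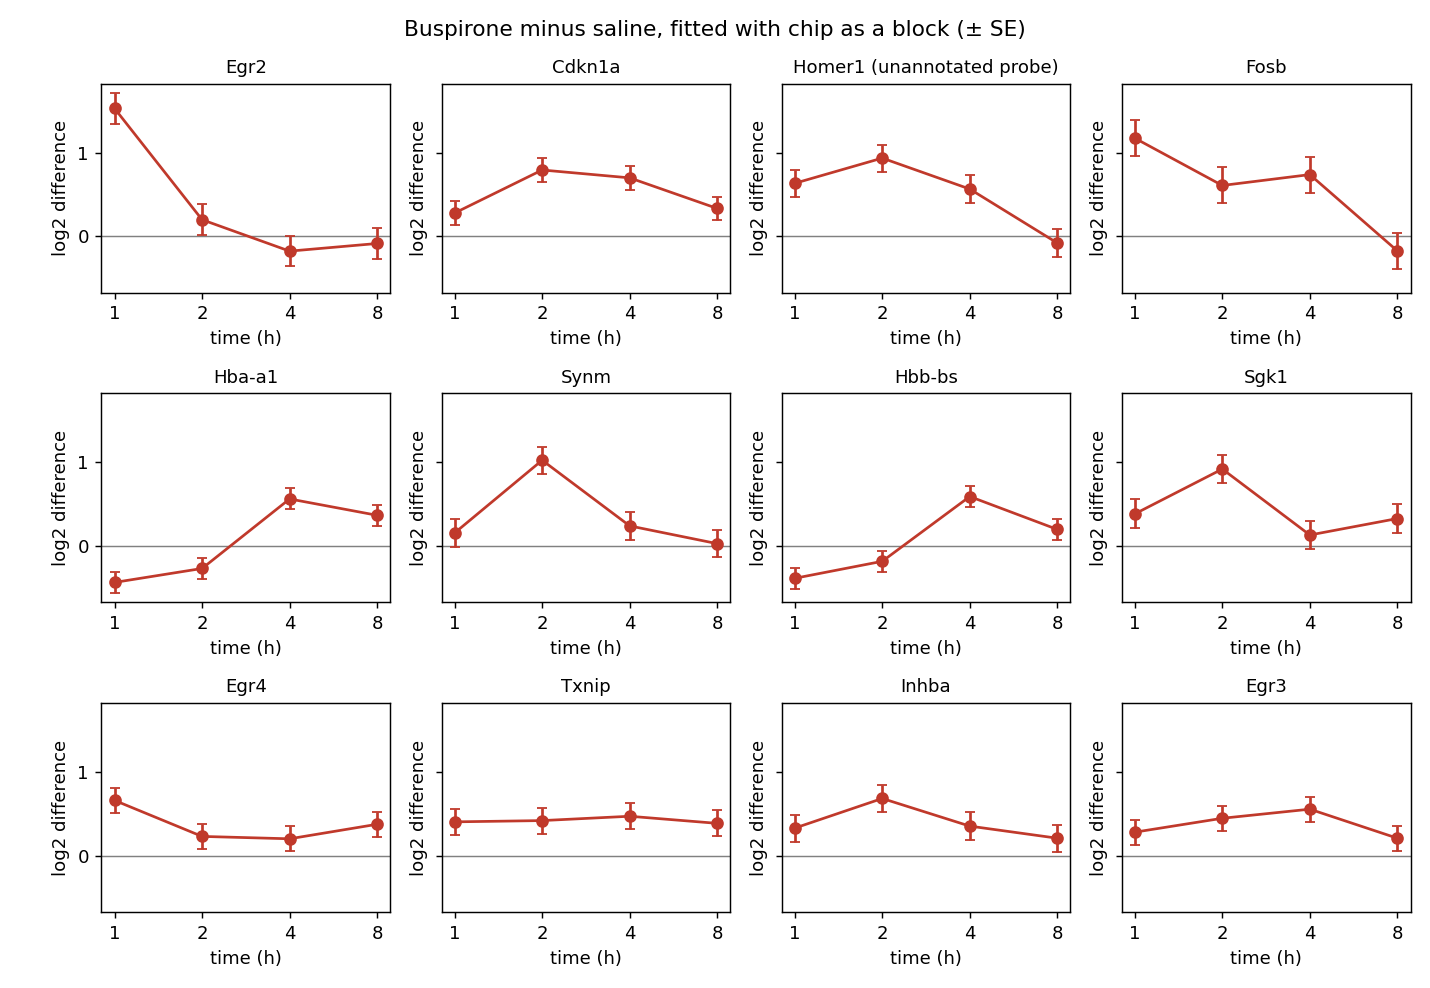
Log2 difference between buspirone and saline at 1, 2, 4 and 8 h (x axis) for the 12 probes that passed the test over the 4 times or the test of the average, as fitted with the chip as a block (points, with bars of 1 SE). Egr2 stood out at 1 h at 1.53, Synm at 2 h at 1.03, and both globin probes lay below 0 at 1 h and above 0 at 4 h.

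Among the 12, the change of largest size was that of Egr2, a zinc finger transcription factor of the immediate early class that is also required for myelination in peripheral nerve. At 1 h its log2 signal was 12.67, 11.58 and 12.42 on the 3 buspirone arrays, against 10.00, 10.74 and 10.92 on the 3 saline arrays. All buspirone arrays lay above all saline arrays. The fitted difference was 1.53 ± 0.18 (SE), a 2.89-fold higher signal (limma, adjusted p = 4e-06). At 2 h the buspirone arrays read 10.67, 10.98 and 10.73 and the saline arrays 10.89, 10.62 and 10.69. At 4 h the values were 9.65, 9.27 and 10.08 after buspirone and 9.56, 10.00 and 9.38 after saline, and at 8 h 8.82, 9.0 and 8.63 against 9.30, 8.89 and 9.14. The groups overlapped at each of these later times, while the level itself came down with time in both groups. Fitted differences were 0.19, -0.18 and -0.09 at 2, 4 and 8 h with adjusted p of at least 0.97. The difference therefore varied between the times by the test of that variation itself (adjusted p = 0.00139), which 3 probes passed (0.00663%). In the test over the 4 times the Egr2 call held when each of the 24 arrays was left out in turn, with an adjusted p of at most 0.028. The variation between times had 0 calls without buspirone 1 h replicate 1, 0 without saline 1 h replicate 5 and 0 without the chip as a block, so that the Egr2 call of that test was lost there.

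Fosb, a subunit of the AP-1 transcription factor whose truncated product accumulates in striatum under repeated stimulation, was higher at 1 h and in the average. At 1 h its log2 signal was 11.24, 10.62 and 10.79 after buspirone, against 8.85, 9.76 and 9.79 after saline. At 2 h it was 10.54, 10.59 and 10.80 after buspirone and 9.89, 9.85 and 10.44 after saline. At 4 h the buspirone arrays read 9.80, 9.47 and 9.84 and the saline arrays 9.21, 9.08 and 8.53. The groups did not overlap at any of these 3 times. Only at 8 h did they, at 8.80, 8.97 and 9.08 after buspirone and 8.75, 9.52 and 9.18 after saline. The difference was 1.17 ± 0.22 at 1 h (2.26-fold, adjusted p = 0.044), 0.61 at 2 h (adjusted p = 0.68) and 0.74 at 4 h (adjusted p = 0.59), and averaged over the times it was 0.58 ± 0.10 (adjusted p = 0.012). By the test over the 4 times its adjusted p was 0.0033, at most 0.032 with any 1 array left out, and 1 without the chip as a block.

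The probe that the study names Homer1 has no gene symbol in the platform annotation. Homer1 encodes a postsynaptic scaffold, and its short activity-induced form, Homer1a, uncouples the long forms. At 2 h this probe read 14.23, 14.12 and 13.82 on the buspirone arrays, against 13.69, 13.35 and 12.76 on the saline arrays. At 1 h it read 14.01, 13.68 and 14.23 after buspirone and 13.35, 13.43 and 13.00 after saline, and at 4 h 13.89, 13.89 and 14.02 against 13.24, 13.27 and 13.36. Every buspirone array was above every saline array through 4 h. At 8 h the order was mixed, with 11.98, 12.39 and 12.17 after buspirone and 12.25, 12.08 and 12.53 after saline, in both groups far under the earlier level. The difference was 0.93 ± 0.16 at 2 h (1.91-fold, adjusted p = 0.0077) and 0.51 ± 0.08 in the average (adjusted p = 0.0011). The 2 h call was lost without saline 2 h replicate 5 or without buspirone 2 h replicate 1. The 4 probes that the annotation assigns to Homer1 did not pass. The brightest of them differed by 0.31 in the average (adjusted p = 0.6) and the other 3 by 0.12, 0.07 and 0.00, so the call holds for the unannotated probe alone.

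Egr3 and Egr4, which belong with Egr2 to a family of zinc finger factors, showed small differences spread over the times. Egr4 read 13.69, 13.21 and 13.01 at 1 h after buspirone, against 10.82, 12.74 and 12.65 after saline, and 11.04, 11.10 and 10.86 at 8 h, against 10.49, 10.82 and 10.69. The groups were apart at both of these times, and 1 saline array at 1 h lay far below its group. At 2 and 4 h the Egr4 arrays overlapped. Egr3 read 14.25, 14.48 and 14.31 at 1 h after buspirone, against 13.95, 14.12 and 14.06 after saline. At 2 h it read 14.47, 14.19 and 14.53 after buspirone and 13.94, 14.10 and 13.52 after saline, and at 4 h 14.28, 14.39 and 14.67 against 14.15, 13.76 and 13.91. All 3 Egr3 comparisons were without overlap. The average difference was 0.37 ± 0.07 for each gene (adjusted p = 0.035 for both), and each was higher after buspirone in all 8 same-chip pairs, as were 234 of all probes (0.517%). A dimmer second probe of Egr3 did not pass, with an average of -0.09. Leaving out 1 array took both calls away in most cases. Egr4 stayed called in 10 of 24 such sets (highest adjusted p = 0.18, without buspirone 1 h replicate 1) and Egr3 in 7 (highest 0.17).

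**Figure D2:**
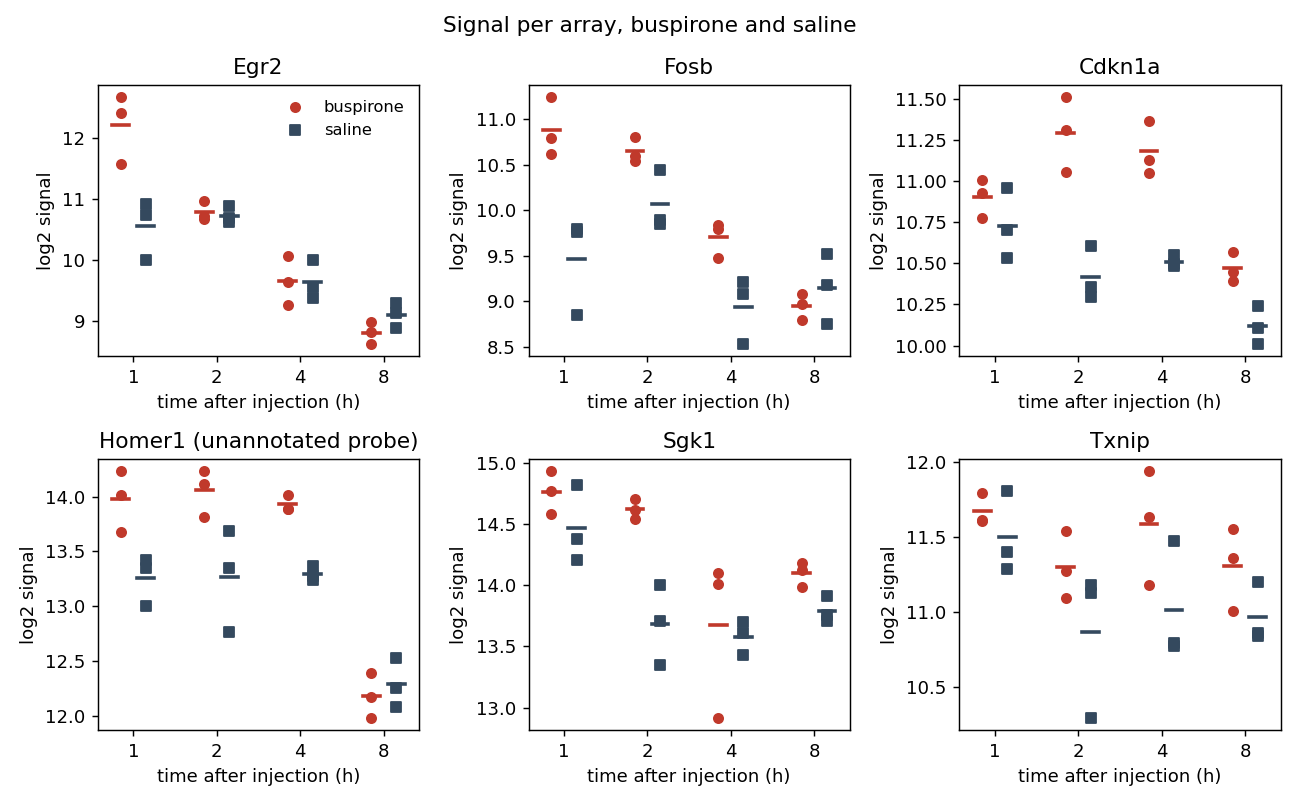
Normalized log2 signal (y axis) on each buspirone array (left points of a pair) and saline array (right points) by time after injection for the leading probes, with the mean of the 3 arrays as a bar. Egr2 separates at 1 h and overlaps afterwards, whereas Cdkn1a separates at 2, 4 and 8 h.

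Promoter sequence is shown for those called genes with an annotated probe whose windows hold a motif linked to cAMP and ERK signalling or to the glucocorticoid receptor, because these are the known routes by which such genes are induced. Windows are 300 bases long, most of them before the start site, from RefSeq on GRCm38.p6. No window was available for Egr3, so its promoter was not searched. Motifs searched on both strands were the CRE half-site TGACG, which reads CGTCA on the other strand, the CArG box bound by serum response factor, and the palindromic glucocorticoid response element, which in the Sgk1 window stands in capitals. Capitals mark the motifs in each window. For Egr2, with 5 windows, the first of those with most matches is printed, and for Sgk1, with 6, the one that holds the glucocorticoid response element, while another Sgk1 window holds 1 half-site. Egr2 is at chr10:67537619-67537918 on the plus strand, with 2 half-sites around 1 CArG box, Egr4 at chr6:85513540-85513839 on the minus strand with 2 half-sites, Fosb at chr7:19309996-19310295 on the minus strand with 1, and Sgk1 at chr10:21993640-21993939 on the plus strand, 1 of 6 windows, with 1 glucocorticoid response element.
Egr2: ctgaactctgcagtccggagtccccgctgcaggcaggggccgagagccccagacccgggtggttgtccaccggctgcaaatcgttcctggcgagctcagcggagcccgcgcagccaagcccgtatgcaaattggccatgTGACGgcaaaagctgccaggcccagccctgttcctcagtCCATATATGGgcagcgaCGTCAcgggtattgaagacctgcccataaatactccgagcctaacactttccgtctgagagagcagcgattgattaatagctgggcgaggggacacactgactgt
Egr4: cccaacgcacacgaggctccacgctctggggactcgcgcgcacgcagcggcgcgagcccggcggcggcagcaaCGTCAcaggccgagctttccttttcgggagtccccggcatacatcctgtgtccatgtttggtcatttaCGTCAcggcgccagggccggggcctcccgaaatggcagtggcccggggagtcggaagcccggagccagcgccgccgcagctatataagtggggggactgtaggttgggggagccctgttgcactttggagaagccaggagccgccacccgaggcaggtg
Fosb: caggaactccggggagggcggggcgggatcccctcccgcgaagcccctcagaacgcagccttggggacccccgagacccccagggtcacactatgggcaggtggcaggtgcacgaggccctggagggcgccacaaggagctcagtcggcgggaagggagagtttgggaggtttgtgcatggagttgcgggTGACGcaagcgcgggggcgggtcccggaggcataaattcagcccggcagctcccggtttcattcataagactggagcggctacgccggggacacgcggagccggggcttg
Sgk1: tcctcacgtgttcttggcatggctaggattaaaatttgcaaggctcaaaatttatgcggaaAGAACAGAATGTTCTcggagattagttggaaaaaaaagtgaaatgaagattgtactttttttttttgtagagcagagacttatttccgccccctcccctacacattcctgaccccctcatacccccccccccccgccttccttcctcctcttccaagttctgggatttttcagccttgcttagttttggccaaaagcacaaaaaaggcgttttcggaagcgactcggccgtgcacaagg

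Of 32851 such windows of mouse genes, 6837 (20.8%) held the half-site, 535 (1.63%) the CArG box and 3 (0.00913%) the glucocorticoid response element. The windows of Cdkn1a, Txnip, Inhba and Synm held none of the motifs, and the first window of Homer1 held 3 half-sites. With the exact element in only 3 windows, its absence does not show that a gene such as Cdkn1a lacks a glucocorticoid response element. A match describes the letters of a window, and binding was not measured.

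Cdkn1a differed over several times rather than at 1. It encodes p21, an inhibitor of cyclin-dependent kinases induced by p53 and by the glucocorticoid receptor. At 2 h its brightest probe read 11.51, 11.05 and 11.31 after buspirone, against 10.29, 10.61 and 10.36 after saline. At 4 h it read 11.05, 11.13 and 11.37 after buspirone and 10.55, 10.49 and 10.50 after saline, and at 8 h 10.57, 10.39 and 10.45 against 10.11, 10.24 and 10.01. Buspirone and saline arrays did not overlap at these times. At 1 h they did, at 10.93, 11.01 and 10.77 after buspirone and 10.96, 10.70 and 10.53 after saline. The difference was 0.27, 0.79, 0.70 and 0.33 at 1, 2, 4 and 8 h (SE 0.14 each), of which the 2 h value passed (1.73-fold, adjusted p = 0.013). That 2 h call was lost without saline 2 h replicate 5 or without buspirone 2 h replicate 1. In the average it was 0.52 ± 0.07, a 1.44-fold higher signal (adjusted p = 5.3e-05). All 8 same-chip pairs ran the same way, from 0.23 to 0.90. Of the other Cdkn1a probes, both dimmer, one was higher by 0.42 (adjusted p = 0.06) and one by 0.33 (adjusted p = 0.23) in the average.

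Sgk1, the serum- and glucocorticoid-regulated kinase, read 14.54, 14.62 and 14.71 at 2 h after buspirone, against 13.71, 13.35 and 14 after saline. At 8 h it read 14.18, 13.98 and 14.12 after buspirone and 13.71, 13.75 and 13.91 after saline. The groups were apart at both times. They overlapped at 1 h, with 14.58, 14.76 and 14.93 after buspirone and 14.82, 14.37 and 14.21 after saline, and at 4 h, with 12.92, 14.01 and 14.10 against 13.61, 13.43 and 13.70. The low value at 4 h was that of 1 buspirone array. The difference was 0.92 ± 0.17 at 2 h (1.89-fold, adjusted p = 0.023) and 0.44 ± 0.08 in the average (adjusted p = 0.033). Its 2 h call was lost without saline 2 h replicate 5 or without buspirone 2 h replicate 1. By the test over the 4 times the adjusted p was 0.046, and it stayed under the threshold in 5 of 24 sets with 1 array left out (highest 0.51, without saline 2 h replicate 5).

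Besides the globins, the remaining probes of the 12 were Txnip, Inhba and Synm, the last of which is described with the 2 h probes below. Txnip, a thioredoxin-binding arrestin that restrains glucose uptake, differed by nearly the same amount at each time, 0.40, 0.42, 0.47 and 0.39 (SE 0.16 each), with an average of 0.42 ± 0.08 (adjusted p = 0.012). Its arrays overlapped at every time, at 4 h for example with 11.18, 11.94 and 11.63 after buspirone and 10.79, 10.77 and 11.47 after saline. All 8 same-chip pairs, whose arrays also entered the fit, were higher after buspirone. A second, dimmer Txnip probe differed by 0.23 (adjusted p = 0.705). The Txnip call was lost without any 1 of buspirone 2 h replicate 2, 4 h replicate 2 or 8 h replicate 1 or saline 4 h replicate 5, at adjusted p of 0.064, 0.056, 0.06 and 0.052. Inhba encodes the subunit of activin A, a secreted factor induced by neuronal activity. It read 10.51, 10.01 and 10.15 at 2 h after buspirone and 9.82, 9.88 and 9.25 after saline, apart from each other, with an average difference of 0.39 ± 0.08 (adjusted p = 0.048). That call held in 6 of 24 sets with 1 array left out (highest adjusted p = 0.25).

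At 2 h alone a second kind of probe stood out. Synm, which encodes the intermediate filament protein synemin, read 10.71, 10.38 and 10.80 after buspirone, against 10.12, 9.16 and 9.57 after saline. The 2 h difference was 1.03 ± 0.16 (2.04-fold, adjusted p = 0.0048). Map1b, a microtubule-associated protein of growing axons, read 13.32, 12.76 and 13.01 after buspirone and 12.25, 11.67 and 12.01 after saline, a difference of 1.00 ± 0.17 (adjusted p = 0.0077). Gnai1, an inhibitory G protein subunit, read 10.79, 10.76 and 10.83 after buspirone and 10.82, 9.66 and 10.33 after saline (0.75 ± 0.15, adjusted p = 0.045), with overlap through 1 saline array. The unannotated probe ILMN_1220958 read 11.78, 11.21 and 12 after buspirone and 10.89, 10.67 and 10.59 after saline (0.94 ± 0.16, adjusted p = 0.0056). Other probes of the same genes did not move with these. Of 3 further Synm probes the brightest differed by 0.01 at 2 h, a brighter Map1b probe by 0.00, and a dimmer Gnai1 probe by -0.02. Leaving out saline 2 h replicate 5 or buspirone 2 h replicate 1 left 0 of the 7 calls at 2 h, and Synm then had adjusted p of 0.49 and 0.28 over the 4 times. Leaving out buspirone 2 h replicate 2 instead gave 34 calls.

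**Figure D3:**
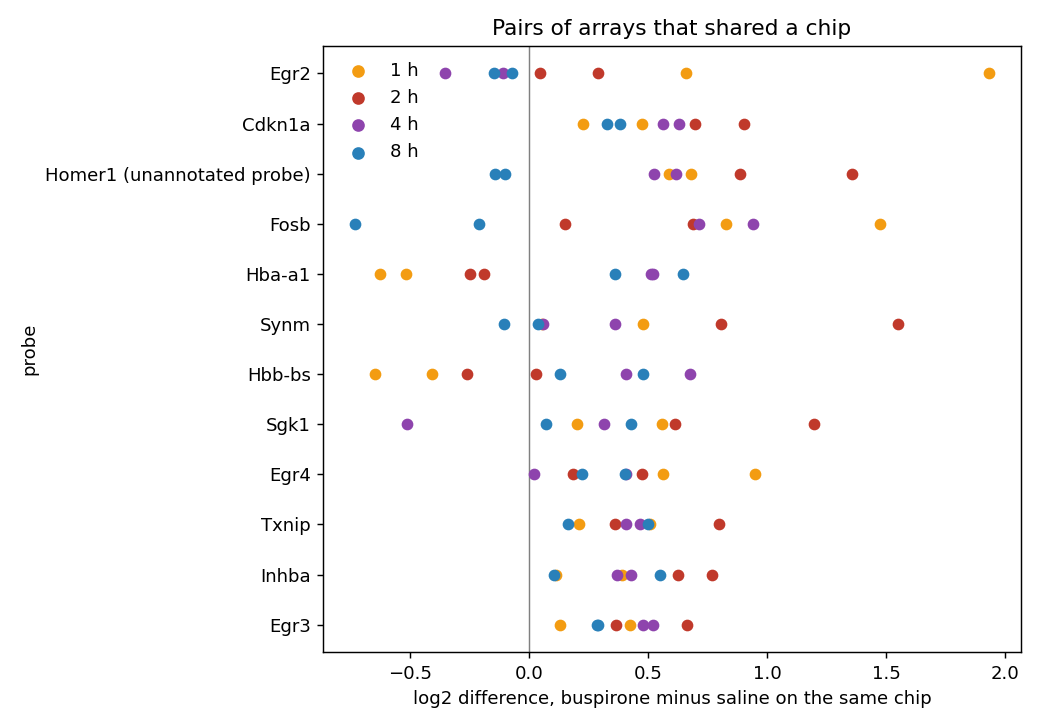
Log2 difference between the buspirone and the saline array of the same time that shared a chip (x axis), for the 12 called probes (rows), with 2 points per time coloured by time. All 8 points of Cdkn1a, Egr4, Txnip, Inhba and Egr3 lie above 0, and the Egr2 points of 1 h lie at 0.66 and 1.93.

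Globin transcripts ran the other way at 1 h. Hba-a1, the alpha chain of haemoglobin, read 14.55, 14.44 and 14.71 at 1 h after buspirone, against 15.26, 15.07 and 15.06 after saline. At 4 h it read 15.04, 15.46 and 15.25 after buspirone and 14.95, 14.53 and 14.94 after saline. The groups were apart at both times, in opposite directions, with differences of -0.44 and 0.56 (SE 0.13 each). At 8 h it read 14.94, 14.96 and 14.88 after buspirone and 14.53, 14.58 and 14.32 after saline (0.37). The difference varied between times (adjusted p = 0.00951), and over the 4 times the adjusted p was 0.0097. For Hbb-bs, a beta chain, 1 of 6 probes was called, with differences of -0.39 at 1 h and 0.59 at 4 h (adjusted p = 0.046 over the 4 times and 0.0497 for the variation between times). It read 14.47, 14.26 and 14.85 at 1 h after buspirone against 15.17, 14.88 and 14.90 after saline, and 15.01, 15.33 and 15.12 at 4 h against 14.58, 14.60 and 14.66, again apart. The other 5 Hbb-bs probes differed by -0.31 to -0.02 at 1 h and by 0.48 to 0.68 at 4 h and did not pass. In the test over the 4 times the Hba-a1 call was lost without buspirone 4 h replicate 3 (adjusted p = 0.066) or saline 4 h replicate 6 (0.056). In that test the Hbb-bs call held in 6 of 24 such sets (highest 0.34). The test of the variation between times had 0 calls without buspirone 1 h replicate 1 or saline 1 h replicate 5.

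The summed signal of 8 blood genes, on the log2 scale, was 16.11 to 16.34 at 1 h after buspirone and 16.55 to 16.86 after saline. At 4 h it was 16.58 to 16.99 after buspirone and 16.22 to 16.47 after saline, and at 8 h 16.30 to 16.54 against 15.92 to 16.28, and at 2 h the ranges overlapped. Among the 8, Hba-a1 passed a test. At an unadjusted p under 0.05, 2 of the 8 were lower at 1 h (beside 2.85% of all probes), 3 were higher at 4 h (2.9%) and 2 were higher at 8 h (2.34%), all of them globins. Alas2 and Slc4a1, which are red cell genes, differed by 0.09 and -0.10 at 1 h and by 0.17 and -0.09 at 4 h. The globin signal was thus lower at 1 h and higher at 4 and 8 h after buspirone, and its part in the other differences was not tested. Neither Alas2 nor Slc4a1 reached the unadjusted threshold at 1, 4 or 8 h. Cortical neuron markers, 9 genes, summed to 14.23 to 14.30 at 8 h after buspirone and 13.77 to 14.11 after saline, and overlapped at the other times. Markers of thalamic, septal or olfactory neurons, also 9 genes, were apart at 4 h. They summed to 14.07 to 14.28 after buspirone and 14.64 to 14.75 after saline, with a median difference of -0.40. Of the 9 averages 1 was above 0, beside 22556 of all 45279 probes. Endothelial markers, 12 genes, summed to 14.43 to 14.55 at 8 h after buspirone and 14.58 to 14.68 after saline. Microglia markers, 13 genes, summed to 14.29 to 14.32 at 4 h after buspirone and 14.18 to 14.26 after saline. These 3 lists overlapped at the other times, as did the oligodendrocyte, astrocyte, choroid plexus, interneuron and medium spiny neuron lists at every time. The part of these cell types in the differences at 4 and 8 h was not tested. Choroid plexus markers, 7 genes, ranged from 12.11 to 15.39 over the buspirone arrays and from 12.21 to 15.33 over the saline arrays.

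Immediate early transcription factors were read as a list of 27 measured genes, of which 4 passed a test (Egr2, Fosb, Egr3 and Egr4), all higher. The list was chosen with earlier results of these data known, so its shares are no independent evidence. At an unadjusted p under 0.05 in the average 10 were higher (37%) and 1 lower (3.7%), beside 2.54% higher and 2.54% lower among all probes. The median average difference was 0.08, beside 0 over all probes. At 1 h it was 0.20, and 9 of 27 were higher and 0 lower, beside 2.63% and 2.85% of all probes. Without the chip as a block 6 were higher and 1 lower in the average, beside 712 and 802 of all 45279 probes. The members were uneven. Fosl2 differed by 0.81 and Junb by 0.67 at 1 h, Csrnp1 by 0.58 and Per1 by 0.47, none past the adjusted test over the times (adjusted p = 0.28, 0.77, 0.14 and 0.87). Fos itself differed by 0.41 at 1 h and 0.06 in the average, Egr1 by 0.05 in the average and Npas4, a factor specific to calcium signalling, by 0.06. Nr4a1, an orphan nuclear receptor of the same class, was the lower one, at -0.16 (unadjusted p = 0.05).

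Among 22 activity-regulated synaptic and secreted genes only Inhba passed, and the median average was 0.10. At an unadjusted p under 0.05, 3 were higher (13.6%) and 1 lower (4.55%), beside 2.54% each way among all probes. Arc, an endosomal and spine protein induced in active neurons, differed by 0.12 (adjusted p = 0.99), Bdnf by 0.01 and Gadd45g, a DNA damage-inducible protein, by 0.25 (adjusted p = 0.6). Of 13 genes of MAP kinase phosphatases and ERK feedback 0 passed, with 1 higher and 1 lower unadjusted (7.69% each, beside 2.54% each way among all probes).

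Among the 25 lists read here, glucocorticoid targets had the largest share of genes higher at an unadjusted p under 0.05 in the average. The lists were chosen with earlier results of these data known, so this rank is no independent evidence. Of 22 genes 2 passed, Cdkn1a and Sgk1, both higher. At an unadjusted p under 0.05 in the average 12 were higher (54.5%) and 0 lower, beside 2.54% each way among all probes. Above 0 lay 21 of 22 averages, the exception being Bcl6 at -0.13, beside 22556 of all 45279 probes. The median difference was 0.13, 0.41, 0.16 and 0.03 at 1, 2, 4 and 8 h, and 12 were higher and 0 lower at 2 h, beside 3.14% and 2.55% of all probes. Fkbp5, a co-chaperone of the receptor, differed by 0.25 in the average and was higher in 8 of 8 same-chip pairs (adjusted p = 0.54). Tsc22d3, or GILZ, differed by 0.50 at 1 h and 0.45 at 2 h (average 0.27, adjusted p = 0.73), and Klf9 by 0.49 at 2 h and 0.39 at 4 h (adjusted p = 0.12 over the times). Hif3a and the lipid droplet gene Plin4 differed by 0.89 and 0.86 at 2 h, neither past the test. Mt1, a metallothionein, differed by 0.04 in the average.

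**Figure D4:**
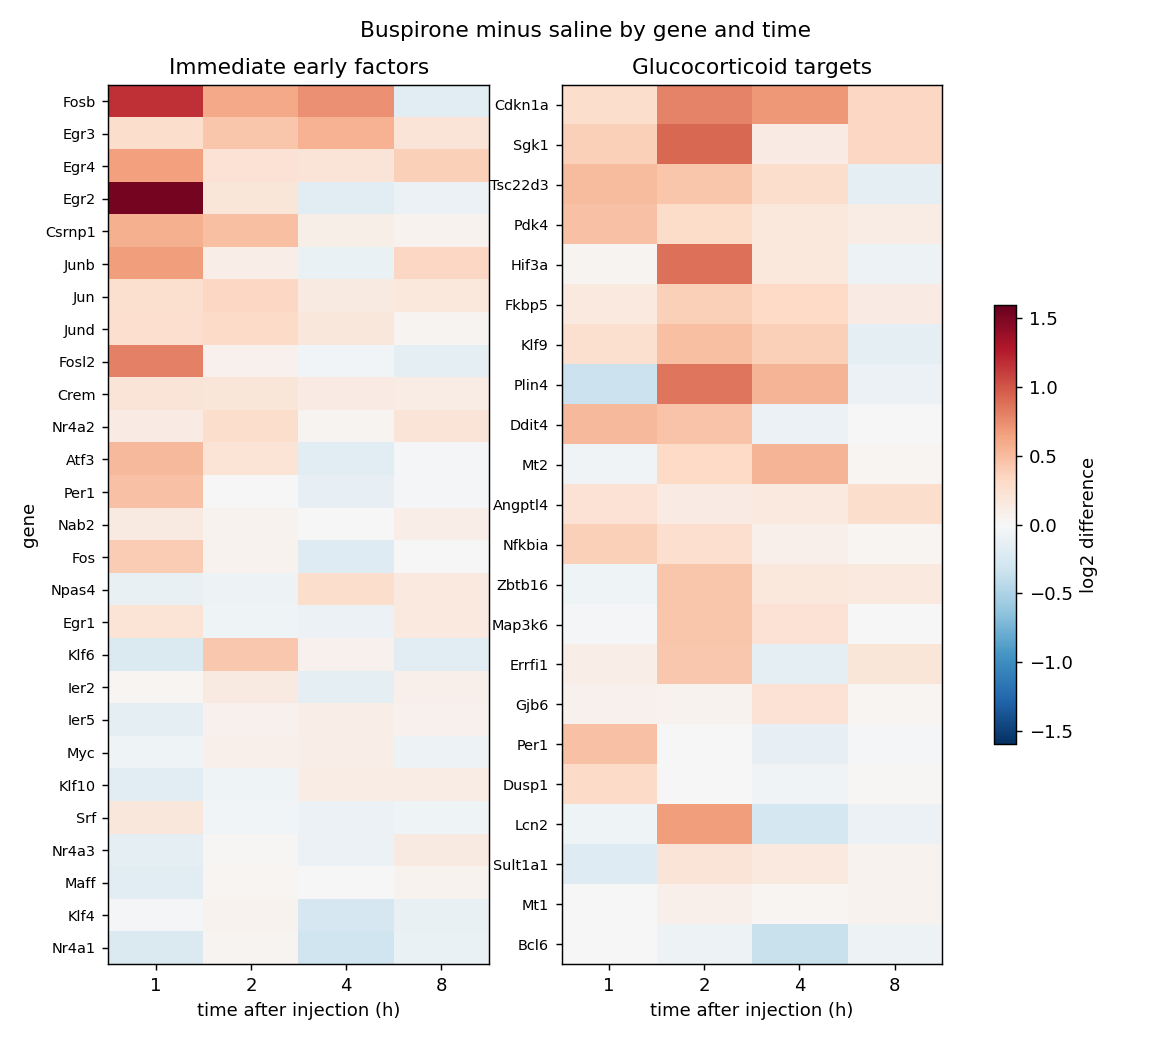
Log2 difference between buspirone and saline (colour, red for higher after buspirone) at 1, 2, 4 and 8 h (columns) for the 27 immediate early factors (left) and the 22 glucocorticoid targets (right), ordered by their average. Early factors are reddest at 1 h, led by Egr2 at 1.53 and Fosb at 1.17, and glucocorticoid targets at 2 h, led by Sgk1 at 0.92 and Hif3a at 0.89.

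Of the genes that buspirone itself acts on or near, 0 of 21 serotonin receptors, transporters and enzymes passed, and 0 reached an unadjusted p under 0.05 in the average. Htr1a, its main receptor, differed by -0.07 ± 0.09. Htr1d, Htr1f, Htr2b and Htr2c were 4 genes lower at 1 h at an unadjusted p under 0.05 (-0.42, -0.36, -0.30 and -0.34), beside 2.85% of all probes. Of 7 dopamine and adrenergic receptors and 30 genes of striatal cAMP signalling 0 passed. Drd1 differed by -0.06 and Drd2 by -0.04 in the average. Among 13 neuropeptide genes, all 13 averages were above 0 with a median of 0.11 and none had an unadjusted p under 0.05. Of all 45279 probes 22556 averages were above 0. Of 13 p53 and cell cycle arrest genes Cdkn1a alone passed, beside 12 of all 45279 probes, and Mdm2, the p53-induced ligase, differed by 0.00. At an unadjusted p under 0.05 in the average 2 of the 13 were higher (15.4%) and 0 lower, beside 2.54% each way among all probes. Of 16 genes of the arrestin, FOXO and mTOR list Txnip alone passed, and 6 were higher (37.5%) and 1 lower (6.25%) at that unadjusted threshold. Irs2, an insulin receptor substrate, differed by 0.62 and 0.67 at 1 and 2 h (average 0.33, adjusted p = 0.29). Ddit4l, an inhibitor of mTOR signalling, differed by -0.32 (adjusted p = 0.19).

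The study grouped its drug-responsive transcripts into networks, chosen on these samples among others, so their direction is no independent evidence. Of 105 alpha network probes 7 passed and were higher, beside 12 of all 45279 probes. Unadjusted, 28 were higher (26.7%) and 5 lower (4.76%) in the average, beside 2.54% each way among all probes. The median difference was 0.19 at 1 h and -0.05 at 4 h. Of 43 beta network probes Cdkn1a passed, 23 were higher and 0 lower unadjusted (53.5%), and the median was 0.06, 0.35, 0.18 and 0.06 at 1, 2, 4 and 8 h. Spsb1, an adaptor of ubiquitin ligases, differed by 0.73 at 2 h in that network (average 0.32, adjusted p = 0.15) and Castor1, an arginine sensor of mTOR signalling, by 0.45 (average 0.30, adjusted p = 0.43). Of 27 gamma network probes 0 passed and 4 were higher unadjusted (14.8%, beside 2.54% of all probes). Without the chip as a block 15, 12 and 0 probes of the alpha, beta and gamma networks were higher and 4, 0 and 0 lower. Of all 45279 probes 712 were then higher and 802 lower.

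Buspirone was set directly against the other 2 anxiolytics of these chips, with no saline array in the contrast. Against hydroxyzine, a histamine H1 antagonist given at the same dose in mg/kg, 4 probes passed, all higher after buspirone (0.00883% over the 4 times and in the average). These were Cdkn1a, the probe named Homer1, Fosb and Sgk1. Cdkn1a differed by 0.58 ± 0.07 in the average (adjusted p = 1.1e-05) and the Homer1 probe by 0.52 ± 0.08 (adjusted p = 0.001). Fosb differed by 0.70 ± 0.11 and Sgk1 by 0.57 ± 0.09 (adjusted p = 0.00082 for both). Sgk1 was furthest apart at 1 h, at 1.1, whereas against saline it was so at 2 h. Its mean at 1 h was 14.76 after buspirone, 13.68 after hydroxyzine and 14.47 after saline, so hydroxyzine lay below saline there. Egr2 did not pass against hydroxyzine, at 0.39 with a 95% interval from 0.20 to 0.58 (adjusted p = 0.59), nor did Txnip, at 0.19 with an interval from 0.03 to 0.35, or Egr4, at 0.21. At 1 h Egr2 averaged 12.23 ± 0.57 after buspirone and 11.36 ± 0.31 after hydroxyzine (SD, n = 3 each).

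Against diazepam, a positive modulator of GABA-A receptors given at 5 mg/kg, 34 probes passed over the 4 times (0.0751%), 33 of them higher after buspirone, and 26 in the average (0.0574%), all higher. The probe named Homer1 led with 0.97 ± 0.08 (adjusted p = 7.1e-11). Its mean at 1 h was 13.98 after buspirone, 12.66 after diazepam and 13.26 after saline. Egr2 differed by 0.90 ± 0.09 (adjusted p = 1.8e-08), with 1.86 at 1 h and 1.36 at 2 h. At 1 h Egr2 averaged 12.23 ± 0.57 after buspirone, 10.18 ± 0.17 after diazepam and 10.56 ± 0.49 after saline (SD, n = 3 each). At 2 h the Egr2 means were 10.79, 9.61 and 10.73 in that order. Diazepam thus lay below saline in these comparisons. Egr4 differed by 0.78, Fosb by 0.84, Arc by 0.70, Fosl2 by 0.65, Egr3 by 0.59 and Fos by 0.50 (adjusted p from 3e-09 to 0.02). Arc and Fos, which did not pass against saline, were thus among genes that differed between the drugs. Cdkn1a differed by 0.49 ± 0.07 (adjusted p = 8.3e-05), and Sgk1 did not pass. Crem, a cAMP-responsive transcriptional repressor, was the gene of the 1 probe whose largest difference was lower after buspirone, -0.82 at 8 h (adjusted p = 0.038 over the times), while a second Crem probe was higher, at 0.41 in the average. Diazepam had been suspended in Tween 80 and buspirone in saline, so vehicle and drug cannot be told apart in this contrast.

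**Figure D5:**
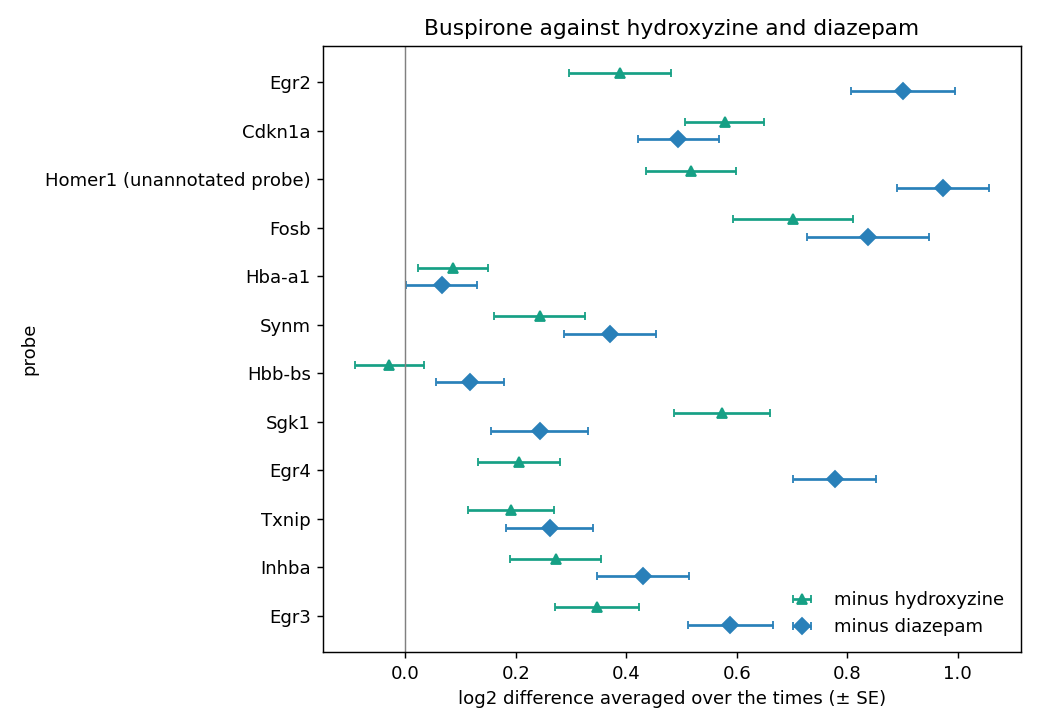
Difference averaged over the 4 times (x axis, log2, with bars of 1 SE) of buspirone minus hydroxyzine and buspirone minus diazepam for the 12 called probes (rows). The Homer1 probe lies at 0.52 against hydroxyzine and 0.97 against diazepam, and Cdkn1a at 0.58 and 0.49.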

How the data were processed

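Striatal RNA was hybridised to Illumina MouseWG-6 arrays, with 3 arrays per drug and time, each a pool of 2 mice. The authors deposited log2 signals of 45281 probes without normalization, made with BeadStudio and BeadArray, and a quantile normalized log2 table, which was used as an alternative. Those without normalization, taken as deposited, were set to common quantiles across every array of the series with limma 3.58.1 under R 4.3.3, and random blocks used statmod 1.5.0. A linear model of 16 groups with the chip as a fixed block (25 residual degrees of freedom) was fitted to the 48 arrays of diazepam, buspirone, hydroxyzine and saline replicates 4 to 6, and its moderated variances followed signal intensity. All 45279 complete probes entered the tests, with Benjamini-Hochberg adjustment over them. The F test covered the 4 times, and changes at single times, their average and their variation between times were tested as contrasts. The tests were checked on data simulated from the same model, a check that cannot test the chip block.

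Genes were named from the platform annotation. Of the probes tested, 34883 had 1 symbol, 18 several and 10378 none, and 34805 matched RefSeq. A gene of a list counts by its brightest probe. The genes named are Egr2, Cdkn1a and Homer1 with all their probes, the called probes, list members that passed and examples with small p. Members and lists were chosen with earlier results of these data known. The correlation of deviations was -0.05 for arrays of one replicate number. No detection p-values were used, so signal over background is unknown, and precision is limited by the number of arrays. The design describes the arrays of a group as independent, and p-values measure the spread between these pools. Plots used matplotlib 3.10.9 and Python 3.11.15.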

Additional observations from a re-analysis of the deposited data

Results flagged for a closer look

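The difference between buspirone and saline varied between the 4 times for 3 probes by the limma test of the interaction of drug and time. Egr2 had an adjusted p of 0.00139, with 1.53 at 1 h and -0.18 at 4 h on the log2 scale. Hba-a1 had an adjusted p of 0.00951, with -0.44 at 1 h and 0.56 at 4 h. Hbb-bs had an adjusted p of 0.0497, with -0.39 at 1 h and 0.59 at 4 h. All 3 calls were lost without buspirone 1 h replicate 1, without saline 1 h replicate 5 and without the chip as a block. Only 1 probe passed without saline 4 h replicate 6, saline 1 h replicate 6, buspirone 4 h replicate 3 or buspirone 1 h replicate 2. Many of the other sets with 1 array left out gave 2, so at least 1 of the 3 calls was lost in each of these. At an unadjusted p under 0.05 there were 2554 probes.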

How the results depend on the processing

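Counts of called probes are given in the order over the 4 times, 1 h, 2 h, 4 h, 8 h, average and interaction against saline, which were 8, 2, 7, 0, 0, 8 and 3, then over the 4 times and average against hydroxyzine (4 and 4) and against diazepam (34 and 26). Without the chip as a block they were 2, 1, 0, 0, 0, 1 and 0, then 1 and 3, and 6 and 9. With the chip as a random block they were 3, 1, 2, 0, 0, 2 and 1, then 3 and 3, and 15 and 12. With the spread of every array of the series and the chip as a block they were 558, 108, 181, 117, 4, 67 and 354, then 262 and 27, and 496 and 155. With that spread and no chip block they were 174, 215, 19, 39, 4, 1 and 110, then 151 and 5, and 1001 and 56. With saline replicates 1 to 6 as 1 group per time they were 262, 16, 131, 42, 13, 61 and 113. Median scaling gave 3, 3, 0, 0, 0, 0 and 1, then 3 and 4, and 17 and 14. Without the trend they were 5, 1, 5, 0, 0, 4 and 1, then 3 and 4, and 21 and 20. The authors' normalized values, the brighter probes alone and a robust prior each gave 1 call at 1 h, and the brighter probes 13 in the average. Without the dimmest chip, chosen after seeing the data, they were 7, 1, 21, 0, 0, 2 and 1, then 3 and 4, and 23 and 21. The cause of these differences was not tested.

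With 1 array left out, the counts lay between 5 and 10 over the 4 times, 1 and 3 at 1 h, 0 and 34 at 2 h, 0 and 1 at 4 h, 0 and 0 at 8 h, 2 and 12 in the average (2 without buspirone 4 h replicate 2) and 0 and 4 for the interaction (0 without buspirone 1 h replicate 1 or saline 1 h replicate 5). Against hydroxyzine they lay between 3 and 5 and between 4 and 5, and against diazepam between 20 and 34 and between 15 and 29.

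Buspirone arrays are numbered 1 to 3 and saline arrays 4 to 6, so the replicate block could not be fitted between them, and their pairs by chip stand in the report. With the replicate block among the drug arrays 2 and 4 probes were called against hydroxyzine and 19 and 18 against diazepam. Of 1091 values of single genes under all alternatives, 894 kept their side of the threshold, 189 lost the call, 8 gained it and 0 called values changed direction. Over 12 alternatives Egr2 was called in 12, Cdkn1a and the Homer1 probe in 11, Fosb in 10, Synm in 9, Txnip in 7, Hba-a1, Egr4, Inhba and Egr3 in 6, Sgk1 in 4 and Hbb-bs in 3.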
